A study of Mus musculus with 11 samples.

Results

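Sonic hedgehog signalling was followed through 9 genes in mouse retina: the ligand Shh, the receptors and co-receptor Ptch1, Smo and Cdon, the transcription factors Gli1, Gli2 and Gli3, the antagonist Hhip, and the cell-cycle gene Ccnd1. They were chosen by symbol as the pathway of a ligand that ganglion cells make, with earlier results of these data known, and each matched 1 of the 47069 Ensembl genes in the count tables. All 9 passed the filter on low counts, as did 18188 genes in all.

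RNA was sequenced from retinas of C57BL/6 mice in 4 groups: wild type at postnatal day 4 (P4, 2 libraries), Brn3b-Kir2.1 at P4 (3 libraries), wild type at P8 (3 libraries) and Brn3b-Kir2.1 at P8 (3 libraries). Brn3b-Kir2.1 mice carry human Kir2.1 joined to the yellow fluorescent protein eYFP, driven by a CAG promoter behind a STOP cassette that Cre removes, together with Brn3b-cre. Kir2.1 is a potassium channel that holds neurons near rest and so quiets them, and Brn3b (the gene Pou4f2) is a transcription factor of retinal ganglion cells. The labels conflict on 3 points: the age field says day 8 where the protocol says day 11, the genotype field says wild type where the protocol names Brn3b-cre mice, and the source field says ganglion cells where the protocol dissociates the retina without a sort. The field values name the groups here, with "Kir2.1" for the transgenic group. Nothing in the labels says that the libraries of a group came from separate animals, so the p-values measure the spread between libraries, which may be technical.

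Gene counts summed to between 9362215 and 12478838 per library. In every library the summed markers of amacrine cells (841 to 2943 CPM, counts scaled to the library total), Müller glia (668 to 1675 CPM) and rods (151 to 5336 CPM) were present beside those of ganglion cells (132 to 1521 CPM), so the libraries held RNA of many retinal cell types. The summed levels of 5 pigment epithelium markers stayed at or under 6.75 CPM. In bulk RNA, fewer cells of a type and less RNA per cell cannot be told apart, and this holds for every level below. Some libraries stood apart. Kir2.1 P8 library 2 had the fewest gene counts (9362215), 31325 genes with a count against 22609 to 24591 in the others, and 69.4% of its unique records in no gene against 57.0% to 62.4%. No call of the 9 genes changed when it was left out. Wild-type P4 library 2 had 916 CPM of 10 summed markers of dividing cells, against 2106 to 2632 CPM in the other 4 P4 libraries, and 898 CPM of 8 rod markers, against 151 to 530 CPM. Wild-type P8 library 1 had 568 CPM of the rod markers, inside the P4 range, while the remaining 5 libraries of that age held 2320 to 5336 CPM, and the highest sum of amacrine markers, 2943 CPM. Without it the averaged call of Shh, described below, was the only one of the 9 genes' calls lost, and none was gained. Wild-type P8 library 3 had the highest sum of rod markers, 5336 CPM.

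Hedgehog ligands are secreted proteins that bind the receptor Patched (Ptch1). Unbound, Patched keeps the membrane protein Smoothened (Smo) silent; once it is bound, Smoothened moves into the primary cilium and the Gli transcription factors switch from repressing to activating their targets. Gli1, Ptch1 and Hhip are themselves classical targets, so that the pathway induces its own activator and its own brakes. In the developing retina, Shh is made by ganglion cells and acts on the dividing progenitors, where it sustains proliferation, partly through Ccnd1 (cyclin D1), and on astrocytes of the optic nerve.

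Promoters are shown for Hhip and Ptch1, classical targets whose levels moved differently between ages, and for Gli2, the single member with a match to the core of the Gli binding sequence. RefSeq windows of 250 bases before the annotated start (build GRCm38.p6) were held for 6 of the 9 genes: Gli2, Smo, Hhip, Cdon, Gli3 and Ptch1. The RefSeq starts of Ptch1, Cdon and Gli3 differ from the ends of the gene spans given below, and their windows lie inside those spans. Capitals mark the match.
Hhip, chr8:80058009-80058258, minus strand: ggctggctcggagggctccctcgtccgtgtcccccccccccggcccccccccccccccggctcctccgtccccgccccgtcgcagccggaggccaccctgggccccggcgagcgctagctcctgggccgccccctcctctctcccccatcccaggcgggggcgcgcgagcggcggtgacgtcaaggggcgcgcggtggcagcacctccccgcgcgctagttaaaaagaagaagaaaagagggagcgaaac
Ptch1, chr13:63565736-63565985, minus strand: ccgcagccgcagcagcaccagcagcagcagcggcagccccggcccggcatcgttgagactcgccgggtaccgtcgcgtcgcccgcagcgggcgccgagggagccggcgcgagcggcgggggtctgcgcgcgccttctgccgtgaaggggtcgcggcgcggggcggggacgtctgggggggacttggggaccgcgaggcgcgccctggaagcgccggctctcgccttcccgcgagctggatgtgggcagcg
Gli2, chr1:119053620-119053869, minus strand: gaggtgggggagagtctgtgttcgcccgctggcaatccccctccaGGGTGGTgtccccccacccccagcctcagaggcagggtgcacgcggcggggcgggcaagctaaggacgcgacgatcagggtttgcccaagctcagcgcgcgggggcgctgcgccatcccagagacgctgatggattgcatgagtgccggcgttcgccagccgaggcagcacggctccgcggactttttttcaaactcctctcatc
The Gli consensus GACCACCCA, searched on both strands (as TGGGTGGTC on the other), was in 0 of the 6 windows and in 0.225% of 32851 promoter windows of the same length. Its core ACCACCC, or GGGTGGT on the other strand, was in 1 of the 6, Gli2, where it begins 205 bases before the start, and in 3.92% of all windows. The core lies within the consensus, so the searches overlap. These are matches of letters in a short window. The Hhip window (76.0% G and C) and the Ptch1 window (78.4%) hold neither string.

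The 3 Gli genes are paralogs, and reads from stretches that they share could be divided between them. The longest identical stretch in the coding sequences of Gli1 and Gli2 (3333 and 4632 bases) is 23 bases, in that of Gli2 and Gli3 (4749 bases) 25 bases, and in that of Gli1 and Gli3 14 bases.
Gli1 and Gli2: gagaagccacacaagtgcacgtt
Gli2 and Gli3: aagaaggagttcgtgtgccgctggc
Some members overlap other annotated genes on the opposite strand, and whether counting used strand is not given in the sources used here. Shh overlaps 9530036O11Rik and Gm26894, counted at up to 1.49 and 1.61 CPM. Gli1 overlaps Arhgap9 (up to 2.51 CPM), Gli3 overlaps Gm6556 (up to 3.22 CPM) and Ccnd1 overlaps Lto1 (up to 25.7 CPM). Without strand, reads from such pairs cannot be told apart.

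Shh lies on chromosome 5 at 28456815 to 28467256 on the minus strand (GRCm38, as for the other genes below, from the GENCODE M21 annotation; identifier ENSMUSG00000002633). It encodes the ligand. Its levels were 5.64 and 4.05 CPM in wild type at P4 and 4.55, 1.92 and 4.37 CPM in the Kir2.1 libraries of that age. At P8 they were 0.823, 4.50 and 0.975 CPM in wild type and 0.662, 1.56 and 1.07 CPM in Kir2.1. Wild-type P8 library 2 thus sat inside the P4 range, and the other 5 P8 libraries were below every P4 library, with raw counts of 8 to 15 against 25 to 66. Averaged over genotypes, the log2 fold change from P4 to P8 was -1.46 ± 0.47 (SE; edgeR quasi-likelihood test with Benjamini-Hochberg adjustment, adjusted p = 0.0411, 5 against 6 libraries). The call held in 7 of 17 alternative settings, and it was lost when either P4 wild-type library, library 1 or 3 of Kir2.1 at P4, or library 1 or 3 of either P8 group was left out. The value was -2.07 without wild-type P8 library 2 and -1.29 without wild-type P8 library 3. Within wild type the change was -1.20 (adjusted p = 0.367) and within Kir2.1 -1.72 (adjusted p = 0.0965), so it passed in neither genotype alone. In Kir2.1 it passed in 3 of 13 alternatives: without a filter (adjusted p = 0.0132, edgeR), on the Kir2.1 libraries alone (adjusted p = 0.0281, edgeR) and by DESeq2 (adjusted p = 0.0429).

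Of the genes that pass the signal across the membrane, Smo fell, while Ptch1 and Cdon did not pass the test. Ptch1 (chromosome 13, 63508328 to 63573598, minus strand) encodes the Patched receptor. It stood at 126 and 116 CPM in wild type at P4, at 132, 148 and 115 CPM in the Kir2.1 libraries of that age, at 109, 116 and 127 CPM in wild type at P8, and at 115, 113 and 101 CPM in Kir2.1 at P8. The 11 values span 101 to 148 CPM and the ages overlap. The averaged change was -0.15 ± 0.09 on the log2 scale, with a 95% interval from -0.35 to 0.04 (adjusted p = 0.247), which reaches a decrease of 0.35 log2 units.

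Smo (chromosome 6, 29735503 to 29761365, plus strand), which encodes Smoothened, had 57.0 and 38.5 CPM in wild type and 60.9, 59.0 and 52.1 CPM in Kir2.1 at P4. At P8 it had 21.8, 19.0 and 28.8 CPM in wild type and 31.0, 29.5 and 27.3 CPM in Kir2.1. Every P8 library was below every P4 library, and the averaged change of -1.004 ± 0.13 is a level 2.01 times lower (adjusted p = 0.000288). Cdon (chromosome 9, 35421128 to 35507652, plus strand) encodes a cell-surface co-receptor that binds Hedgehog ligands. It was at 209.7 and 183 CPM in wild type and 262, 429 and 226 CPM in Kir2.1 at P4, then at 126, 176 and 206 CPM in wild type and 192, 223 and 177 CPM in Kir2.1 at P8. Kir2.1 P4 library 2 was the highest of the 11, and the ages overlapped. The averaged change of Cdon was -0.42 ± 0.17 (adjusted p = 0.0980, edgeR), and with 1 library left out it ranged from -0.51 to -0.26. It passed in 3 of 17 alternatives: without a filter (-0.42, adjusted p = 0.00060, edgeR), without wild-type P8 library 3 (-0.50, adjusted p = 0.0497, edgeR), and without that library and wild-type P4 library 2 together (-0.55, adjusted p = 0.0498, edgeR).

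All 3 Gli genes fell from P4 to P8, and Gli1 had the largest estimated change of the 9 members. Gli1 (chromosome 10, 127329882 to 127341974, minus strand) is an activator whose own transcription is a common readout of Hedgehog activity. It had 17.1 and 7.26 CPM in wild type and 29.3, 21.4 and 20.3 CPM in Kir2.1 at P4. At P8 it had 0.915, 1.19 and 0.569 CPM in wild type and 0.993, 1.56 and 1.07 CPM in Kir2.1, from raw counts of 7 to 15. Every P4 library was above every P8 library. The averaged change was -4.03 ± 0.28, a level 16.3 times lower (95% interval -4.64 to -3.41; adjusted p = 3.31e-06).

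Gli2 (chromosome 1, 118834132 to 119053619, minus strand), the main activator when ligand first arrives, had 34.8 and 19.9 CPM in wild type and 45.3, 39.5 and 36.2 CPM in Kir2.1 at P4. It had 9.52, 5.95 and 9.75 CPM in wild type and 8.27, 12.3 and 4.81 CPM in Kir2.1 at P8. The change was -1.98 ± 0.24, or 3.95 times lower, with no overlap between ages. Gli3 (chromosome 13, 15463235 to 15730026, plus strand) acts largely as the repressor of the pathway. It had 152 and 72.3 CPM in wild type and 163, 197 and 126 CPM in Kir2.1 at P4. At P8 it had 16.8, 23.0 and 32.9 CPM in wild type and 34.5, 34.0 and 24.3 CPM in Kir2.1. Its change was -2.30 ± 0.22, or 4.91 times lower, again without overlap. The activator Gli1 and the repressor Gli3 therefore both fell between the ages.

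Hhip (chromosome 8, 79965851 to 80058006, minus strand) encodes a surface protein that binds and sequesters Hedgehog ligands. It had 14.8 and 9.38 CPM in wild type and 15.9, 13.7 and 8.82 CPM in Kir2.1 at P4, then 1.28, 1.36 and 2.44 CPM in wild type and 1.49, 1.25 and 1.16 CPM in Kir2.1 at P8. The groups of the ages did not overlap, and the averaged change was -3.05 ± 0.26, or 8.30 times lower (adjusted p = 1.09e-05). Ccnd1 (chromosome 7, 144929931 to 144939925, minus strand) encodes cyclin D1, which drives cells out of the G1 phase and is the D-type cyclin of retinal progenitors. It had 662 and 335 CPM in wild type and 711, 749.8 and 583 CPM in Kir2.1 at P4. At P8 it had 65.2, 49.6 and 74.9 CPM in wild type and 78.3, 72.9 and 61.2 CPM in Kir2.1. The change was -3.12 ± 0.18, or 8.70 times lower (adjusted p = 1.99e-06).

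**Figure D1:**
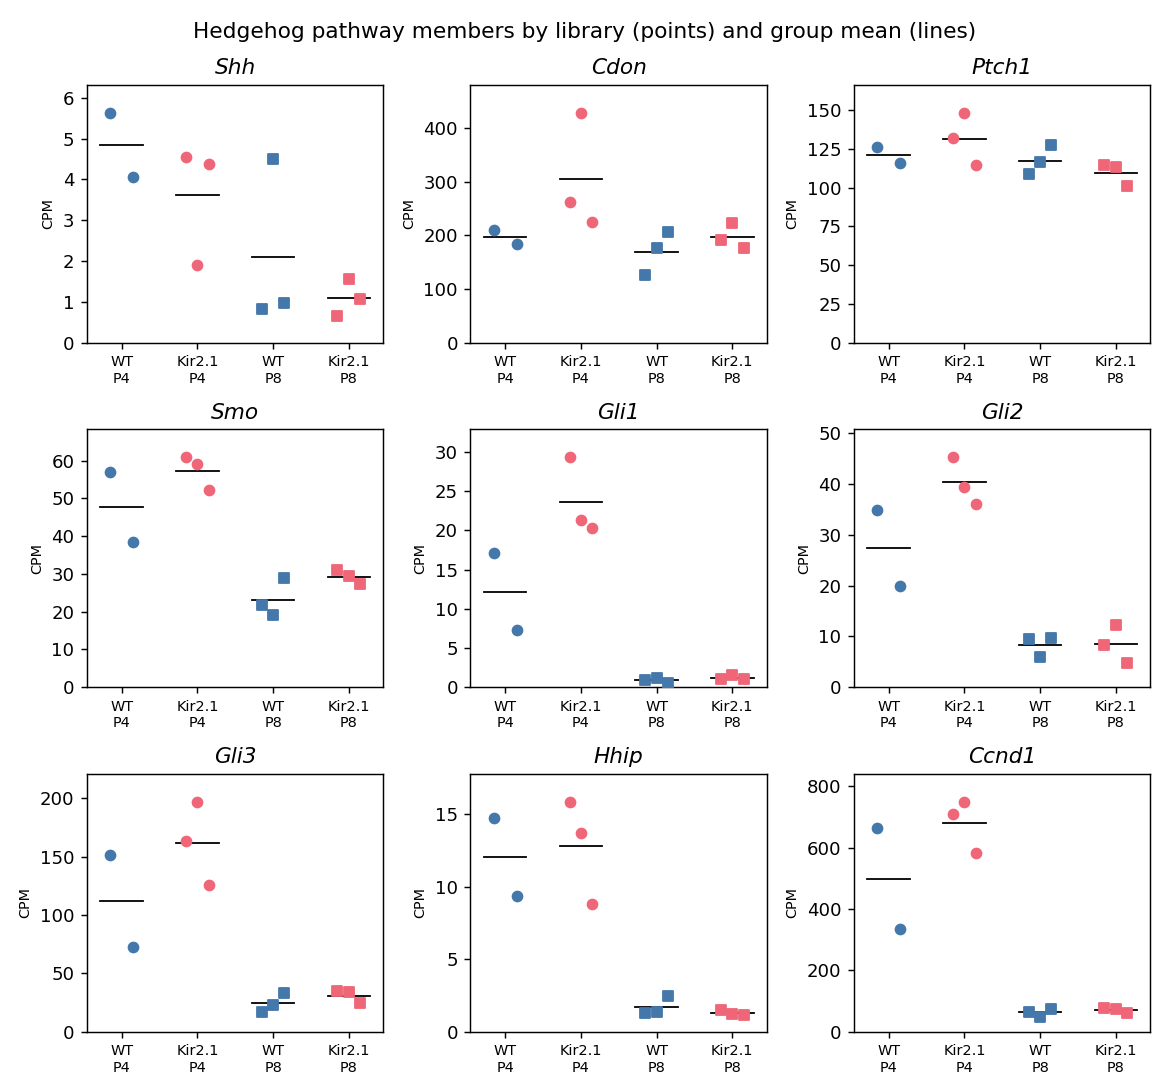
Level of each of the 9 genes in CPM (vertical axes, linear, from 0) in the 11 libraries, by genotype and age. Points are libraries (blue for wild type, red for Kir2.1, circles for P4, squares for P8) and lines are group means. Ptch1 spans 101 to 148 CPM in all groups, Gli1 does not pass 1.56 CPM at P8, and 1 wild-type P8 library holds Shh at 4.50 CPM.

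In wild type alone, 6 of the 9 genes were lower at P8 with an adjusted p under 0.05 (Gli1, Ccnd1, Hhip, Gli3, Gli2 and Smo) and none was higher. Among all 18188 genes, 4.39% were called in this comparison, 3.58% as lower and 0.803% as higher. In Kir2.1 the same count was 6 of 9, for the same 6 genes, against 16.7% of all genes called, 8.73% lower and 7.93% higher. Averaged over genotypes it was 7 of 9 with Shh, against 22.8% called, 12.1% lower and 10.7% higher. The median log2 fold change of the 9 genes was -1.70 in wild type, -2.26 in Kir2.1 and -1.98 averaged, where the medians over all genes tested were 0.03, 0.00 and 0.02.

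The genes of non-overlapping levels were those same 6 in wild type, where 16.9% of all genes were lower without overlap, and in the average, where 7.11% were. In Kir2.1 all 9 genes were lower without overlap (18.7% of all genes), and all 9 had an unadjusted p under 0.05 in that direction (14.9% of all genes). Gli1 changed by -3.76 ± 0.42 in wild type (adjusted p = 0.000341) and by -4.29 ± 0.39 in Kir2.1 (adjusted p = 7.06e-05). Ccnd1 changed by -2.98 and -3.26, Hhip by -2.82 and -3.29, Gli3 by -2.20 and -2.39, Gli2 by -1.70 and -2.26, and Smo by -1.04 and -0.97, in the order wild type and Kir2.1. Cdon changed by -0.22 (adjusted p = 0.710) and -0.63 (adjusted p = 0.0828), and Ptch1 by -0.04 (adjusted p = 0.902) and -0.26 (adjusted p = 0.160). In Kir2.1, Cdon passed in 4 of 13 alternatives: without a filter (-0.63, adjusted p = 0.000122, edgeR), by DESeq2 (-0.64, adjusted p = 0.0350), on the Kir2.1 libraries alone (-0.63, adjusted p = 0.0381, edgeR) and without Kir2.1 P4 library 3 (-0.81, adjusted p = 0.0454, edgeR). With 1 library left out, the change of Cdon in Kir2.1 ranged from -0.81 to -0.31. The wild-type calls rest partly on which P4 library is used: without wild-type P4 library 1, the changes of Gli2 and Smo in wild type were -1.25 and -0.73 and neither passed, and without wild-type P8 library 2 that of Gli2 was -1.51 and did not pass (adjusted p = 0.0607, edgeR).

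**Figure D2:**
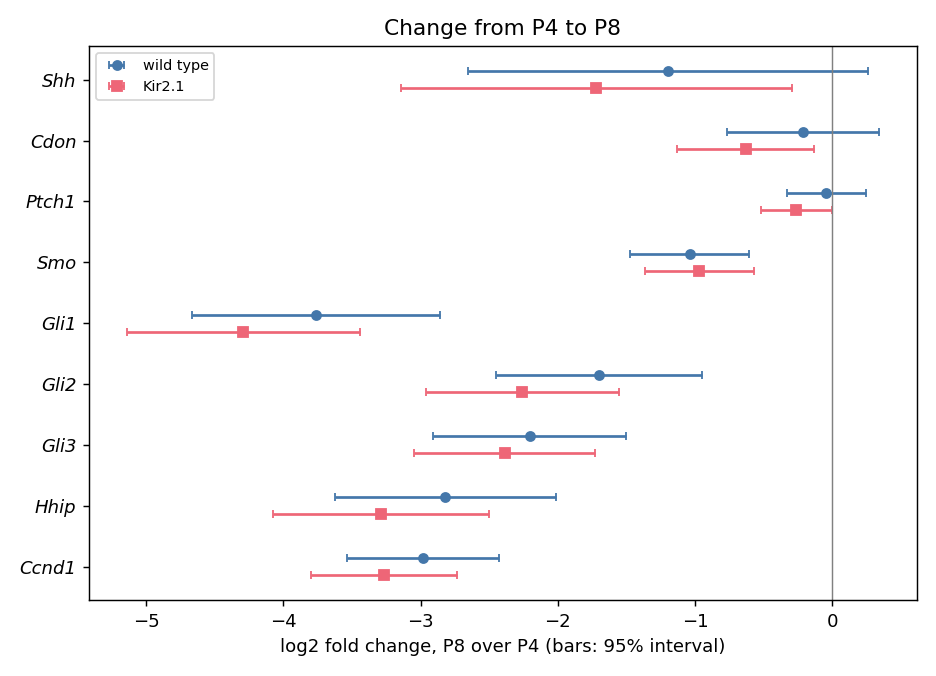
Log2 fold change from P4 to P8 (horizontal axis) for each gene, in wild type (blue circles, 2 against 3 libraries) and in Kir2.1 (red squares, 3 against 3), with 95% intervals from the edgeR fit as bars. Gli1 lies furthest below 0 in both genotypes, at -3.76 and -4.29, and Ptch1 lies nearest to 0, at -0.04 and -0.26.

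Levels were compared between genes per kilobase of exon. In wild type at P4 the order was Ccnd1 (106 CPM per kb), Cdon (25.5), Gli3 (11.7), Ptch1 (8.52), Smo (8.50), Gli2 (3.99), Gli1 (2.44), Shh (1.70) and Hhip (1.33). Gli3 overlapped Ptch1, Ptch1 overlapped Smo, and each of the last 4 genes overlapped its neighbour, so their order is not settled by 2 libraries. In Kir2.1 at P4 the first 3 places were the same and none of these 3 overlapped its neighbour. In wild type at P8 Cdon was first (21.9 CPM per kb), before Ccnd1 (13.4) and Ptch1 (8.27), and these 3 did not overlap. Smo (4.13), Gli3 (2.53), Gli2 (1.22) and Shh (0.738) followed, where Smo overlapped Gli3 and Gli2 overlapped Shh. The last places at P8 were held by Hhip (0.186 CPM per kb) and Gli1 (0.178), which overlapped. In Kir2.1 at P8 the order from Cdon to Shh was the same, and Gli1 (0.242) lay above Hhip (0.143). In both P8 groups the receptor Ptch1 and the co-receptor Cdon lay above every Gli gene per kilobase, without overlap.

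The classical targets parted from each other. Gli1 per 100 CPM of Ptch1 was 6.27 to 22.3 CPM over the 5 P4 libraries (median 14.4) and 0.447 to 1.38 CPM over the 6 P8 libraries (median 0.942). The log2 difference was -3.95, with -3.66 within wild type and -4.04 within Kir2.1. Hhip per 100 CPM of Ptch1 was 7.70 to 12.1 CPM at P4 and 1.10 to 1.92 CPM at P8, a log2 difference of -2.91. Neither ratio overlapped between ages. In an exact two-sided permutation test over libraries both had p = 0.00433, the smallest that 5 against 6 libraries can give, and p = 0.00577 after adjustment over the 8 ratios computed. The ratios were chosen after the levels had been seen. Gli1 and Hhip alone did not overlap between ages, while Ptch1 varied little, so the separation of both ratios was set beforehand. Their p-values add no support to the results of the single genes.

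Markers of dividing cells moved with the pathway genes between ages. All 10 of these markers, which include Mki67 and Top2a, fell from P4 to P8 with an adjusted p under 0.05, and their median log2 fold change averaged over genotypes was -3.77. Summed, they ranged from 916 to 2632 CPM at P4 and from 97.2 to 140.2 CPM at P8, with none at 0 in any library. Gli1 per 1000 CPM of these markers was 6.83 to 11.1 CPM at P4 (median 9.63) and 5.85 to 11.1 CPM at P8 (median 9.37). The log2 difference was -0.02 (SD 0.29 at P4 and 0.34 at P8; exact permutation p = 0.905, n = 5 and 6), and the ranges overlapped. Ccnd1 per 1000 CPM of the same markers was 265 to 366 CPM at P4 and 445 to 771 CPM at P8, a log2 difference of 0.95 (exact permutation p = 0.00433, n = 5 and 6). Ccnd1 thus fell less than the summed dividing markers, and the difference for Gli1 was within the spread between libraries. What part the number of dividing cells has in the change of the pathway genes was not tested.

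Markers of other cell classes moved in both directions, and their calls here are averaged over genotypes unless stated. All 8 rod markers and all 6 bipolar cell markers rose from P4 to P8, with median log2 fold changes of 3.31 and 4.42. In wild type alone 0 of the 8 rod markers and 1 of the 6 bipolar cell markers passed the test. Of 7 progenitor markers 6 fell and 1 rose, and their sum was 399 to 671 CPM at P4 and 270 to 725 CPM at P8. Against that sum, Gli1 and Ccnd1 differed between ages by -3.93 and -2.96 (exact permutation p = 0.00433 each, n = 5 and 6). The sum holds the marker that rose as well as those that fell, which limits both values. Of 8 Müller glia markers 4 fell and 1 rose, their sum was 946 to 1675 CPM at P4 and 668 to 1052 CPM at P8, and Gli1 against it differed by -3.57 (exact permutation p = 0.00433, n = 5 and 6). Gli1 and Ccnd1 alone did not overlap between ages, while the progenitor and Müller glia sums did. The permutation p-values against these sums therefore add no support to the results of the single genes. None of 5 astrocyte markers passed the test, and their sum stayed between 45.5 and 90.0 CPM in the 11 libraries.

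Shh was set against ganglion cell markers, since these cells are its known source. Of 10 such markers 9 fell from P4 to P8, and their sum went from 323 to 1521 CPM at P4 to 132 to 399 CPM at P8. Shh per 1000 CPM of these markers was 3.70 to 5.98 CPM at P4 and 2.56 to 11.3 CPM at P8, a log2 difference of 0.15 (SD 0.32 and 0.92; exact permutation p = 0.749, n = 5 and 6). At P8 this ratio rests on 8 to 53 counts of Shh per library, and the library with 53 counts had the highest ratio.

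**Figure D3:**
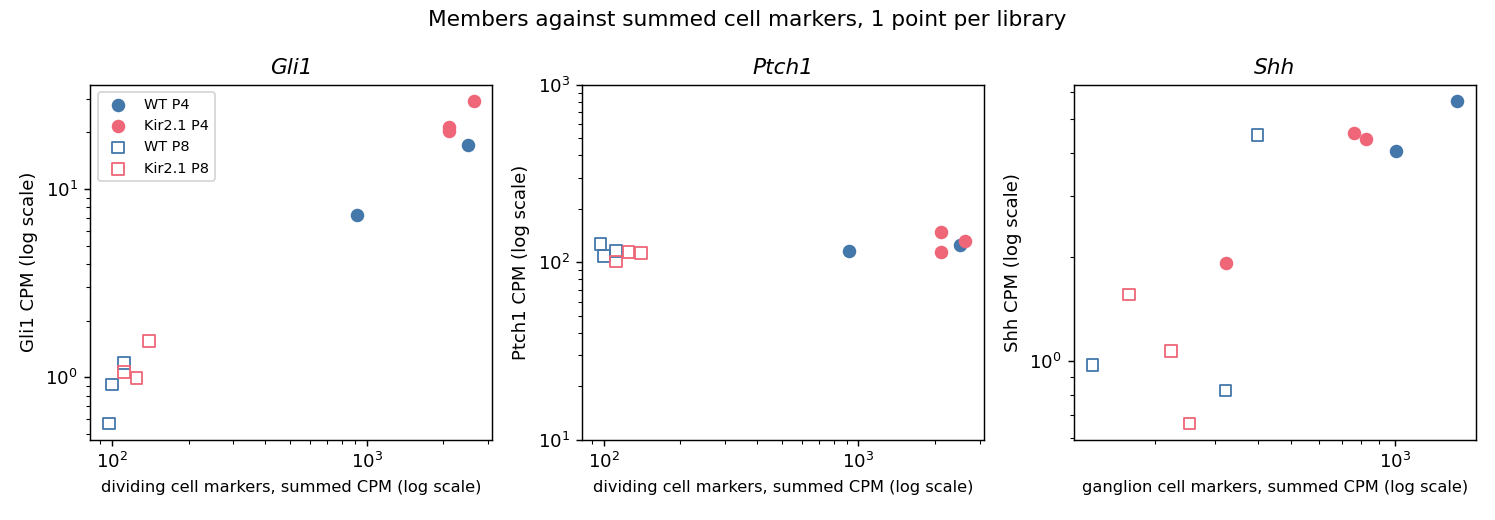
Level of Gli1 (left) and Ptch1 (middle) against the summed markers of dividing cells, and of Shh (right) against the summed markers of ganglion cells, in CPM on log axes, 1 point per library. Blue is wild type, red is Kir2.1, filled circles are P4 and open squares are P8. Gli1 falls with the dividing markers from 2632 to 97.2 CPM, Ptch1 stays between 101 and 148 CPM along the same axis, and wild-type P4 library 2 lies between the ages at 916 CPM.

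The genes most like Gli1, Ccnd1 and Shh were found by the root mean square difference of their log2(CPM + 1) profiles, each centred on its mean, over the 11 libraries and 15920 genes. Nearest to Gli1 were Dtl (0.23), Gas2l3 (0.25), Atad2 (0.25), Pclaf (0.26) and Spag5 (0.27), with Ccnd1 at place 28. Nearest to Ccnd1 were Espl1 (0.18), Dtl (0.21), Stil (0.22), Kif14 (0.25) and Clspn (0.26), with Gli1 at place 30. Dtl, Pclaf and Clspn are genes of DNA replication, and Espl1, Stil, Spag5 and Kif14 are genes of mitosis. Nearest to Shh were Prr5 (0.23), Aldh1b1 (0.26), Kcnh4 (0.28), Gm42583 (0.30) and Rasgrp2 (0.32), and the nearest other member, Smo, came at place 2650. For Gli1 the places of the other members were 136 for Gli3, 150 for Hhip, 217 for Gli2, 680 for Smo, 978 for Shh, 2046 for Cdon and 4501 for Ptch1. All libraries share the contrast of ages, and these values are a description.

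Other genes of the pathway came from lists made up of 51 genes, of which 48 passed the filter (Ihh, Foxf1 and Nkx2-2 did not). Averaged over genotypes, 7 of the 48 were higher and 13 lower at P8, with a median log2 fold change of -0.03. In Kir2.1 these counts were 7 and 11 of 48, where 7.93% of all genes were higher and 8.73% lower, and in wild type 2 and 1 of 48, where 0.803% were higher and 3.58% lower. The share lower in the average, 13 of 48, compares with 12.1% of all genes, and the share higher, 7 of 48, with 10.7%.

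Among 8 tested targets 7 fell and none rose. Foxm1, a transcription factor of dividing cells, changed by -3.66 ± 0.23, Hes1, a repressor of neuronal differentiation, by -1.63 ± 0.28, Ccnd2, another D-type cyclin, by -1.34 ± 0.29, and Sfrp1, a secreted Wnt inhibitor, by -1.14 ± 0.24. Mycn, a growth regulator of progenitors, changed by only -0.35 ± 0.11 (adjusted p = 0.0321), and it did not pass without either wild-type P4 library, library 1 or 2 of Kir2.1 at P4, wild-type P8 library 2, or library 1 or 3 of Kir2.1 at P8 (-0.38 to -0.31). Of 6 genes of ligand reception 3 fell and none rose. Gas1, a co-receptor, changed by -0.91 ± 0.19 (adjusted p = 0.00481), and the co-receptor Boc had a change of 0.30 ± 0.26 (adjusted p = 0.450).

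Of 20 genes of signal transduction 4 rose and 1 fell in the average. The kinases Dyrk2 and Ulk3 rose by 0.98 ± 0.27 and 0.91 ± 0.12, and Ulk3 (0.77) and the ubiquitin ligase subunit Btrc (0.50) were the only pathway list genes higher in wild type alone, where Foxm1 (-3.34) was the only one lower. Without wild-type P4 library 1 the changes of Ulk3 and Btrc in wild type were 0.63 and 0.35 and did not pass, nor did the averaged change of Dyrk2 (0.89). Without wild-type P8 library 2, Ulk3 (0.66) and Btrc (0.50) did not pass in wild type, nor did Btrc without wild-type P8 library 3 (0.45) or averaged Dyrk2 without Kir2.1 P4 library 1 (0.93). Sufu, which holds the Gli proteins in the cytoplasm, changed by 0.18 ± 0.08 (adjusted p = 0.144), from 39.1 to 46.5 CPM at P4 to 44.5 to 52.4 CPM at P8. The ciliary kinesin Kif7 changed by -0.62 ± 0.22 (adjusted p = 0.0605), and passed without a filter (-0.62, adjusted p = 0.0306, edgeR), by DESeq2 (-0.62, adjusted p = 0.0355), without wild-type P8 library 1 (-0.48) or 3 (-0.75), and without wild-type P8 library 3 and wild-type P4 library 2 together (-0.81). Of 8 cilium genes 2 rose, among them the ciliary GTPase Arl13b (0.76 ± 0.14), and 1 fell. Among 6 tested genes of ligands and their release 1 rose and 1 fell. The one that rose was the ligand Dhh, at 1.65 ± 0.40 (adjusted p = 0.0112), from 0.650 to 1.69 CPM at P4 to 1.56 to 6.15 CPM at P8. Without wild-type P4 library 1 its change was 1.49 and did not pass. In Kir2.1 alone the genes with the highest changes were Dhh (2.28), Ulk3 (1.04), Arl13b (0.97) and the kinase Stk36 (0.66), and among those with the lowest were Foxm1 (-3.98), Hes1 (-1.79) and Sfrp1 (-1.34). The calls of Dhh, Stk36 and Sfrp1 in Kir2.1 were lost without Kir2.1 P8 library 3, at 2.11, 0.73 and -1.14, and without Kir2.1 P4 library 3, at 2.18, 0.68 and -1.03. Those of Dhh (2.02) and Stk36 (0.68) were also lost without Kir2.1 P4 library 1, and that of Stk36 without Kir2.1 P4 library 2 (0.59) or Kir2.1 P8 library 2 (0.43).

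The comparison of genotypes asked whether Kir2.1 in ganglion cells went with a change in the pathway. The human transgene itself was not analysed here. At P4 none of the 9 genes was called between Kir2.1 and wild type by edgeR (0% of 18188 genes called; 7.22% with an unadjusted p under 0.05, and 21 genes called by DESeq2). The log2 fold changes were positive for 8 of the 9, with a median of 0.45 beside 0.01 over all genes. Gli1 had the highest, 0.96 ± 0.36 (unadjusted p = 0.0217, adjusted p = 0.677, edgeR), and Cdon followed with 0.64 ± 0.26 (unadjusted p = 0.0304, adjusted p = 0.677, edgeR). These 2 of 9 had an unadjusted p under 0.05 in the higher direction, as did 2.5% of all genes. The levels of Gli1, Gli2 and Cdon were higher in Kir2.1 without overlap, as were those of 12.4% of all genes. The remaining changes were 0.56 for Gli2, 0.53 for Gli3, 0.45 for Ccnd1, 0.26 for Smo, 0.12 for Ptch1, 0.09 for Hhip and -0.43 for Shh, none with an unadjusted p under 0.05.

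These P4 differences moved with library 2 of wild type. It had the lower level of the wild-type pair for all 9 genes, together with the fewest dividing markers (916 CPM, against 2500 CPM in wild-type library 1 and 2106 to 2632 CPM in Kir2.1). Without it the changes were 0.47 for Gli1, 0.21 for Gli2, 0.10 for Gli3 and 0.04 for Ccnd1, while Cdon was at 0.54. The change of Cdon also depended on single libraries. It ranged from 0.32 to 0.81 with 1 library left out, and Kir2.1 library 2 held the highest level, 429 CPM. Without wild-type library 1 instead of library 2, the changes were 1.70 for Gli1, 1.01 for Gli2, 1.16 for Gli3 and 1.02 for Ccnd1. Per 1000 CPM of dividing markers, Gli1 was 6.83 and 7.93 CPM in wild type and 9.63 to 11.1 CPM in Kir2.1, without overlap. That ratio was not tested between genotypes, and the levels of 12.4% of all genes were also higher in Kir2.1 without overlap. Markers of several cell classes had P4 differences too, none of them called by edgeR. The 10 dividing markers were all higher in Kir2.1 (median log2 fold change 0.33, 2 with an unadjusted p under 0.05), as were the 7 progenitor markers (median 0.36, 0 with such a p) and 7 of the 8 Müller glia markers (median 0.29, 1 with such a p). The 6 bipolar cell markers were all lower (median -2.85, 3 with such a p). Their sum was 102 CPM in wild-type library 1 and 287 CPM in wild-type library 2, against 105 to 109 CPM in Kir2.1. In summed level only wild-type library 2 thus lay above Kir2.1. The part of these cell classes in the differences of the pathway genes was not tested.

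At P8 none of the 9 genes was called either (0% of 18188 genes; 6.82% with an unadjusted p under 0.05, and 1 gene called by DESeq2), and none had an unadjusted p under 0.05. Without wild-type P8 library 3, 219 genes were called, none of them a member. The change was -0.95 ± 0.66 for Shh, whose interval ran from -2.39 to 0.49, and 0.27 without wild-type P8 library 2. It was 0.43 ± 0.45 for Gli1, 0.35 ± 0.30 for Gli3, 0.34 ± 0.18 for Smo, 0.22 ± 0.23 for Cdon, 0.16 ± 0.23 for Ccnd1, 0.00 ± 0.33 for Gli2, -0.10 ± 0.12 for Ptch1 and -0.38 ± 0.38 for Hhip. For Ptch1 the interval of -0.36 to 0.16 is narrow, and for Gli1, at 7 to 15 counts a library, that of -0.55 to 1.40 reaches a change of 1.40 log2 units. The difference of the Kir2.1 effect between P8 and P4 was called for none of the 9 (0% of all genes called by edgeR, 3.09% with an unadjusted p under 0.05, and 0 called by DESeq2), and no member had an unadjusted p under 0.05. The effect at P8 was therefore not shown to differ from that at P4, and the estimates ran from -0.55 for Gli2 to 0.07 for Smo.

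None of the 10 ganglion cell markers was called between genotypes at P4 by edgeR. Their sum was 1521 and 1012 CPM in wild type and 761, 323 and 825 CPM in Kir2.1, without overlap, and 7 of the 10 had an unadjusted p under 0.05 for a lower level, as did 4.72% of all genes. Pou4f2, the gene whose driver directs Cre, changed by -0.87 ± 0.40 at P4 (unadjusted p = 0.0492, adjusted p = 0.688, edgeR). The lowest Shh level at P4, 1.92 CPM, was in the Kir2.1 library with the lowest sum of these markers, 323 CPM. Shh per 1000 CPM of the markers, a ratio not tested between genotypes, was 3.70 and 4.01 CPM in wild type and 5.30 to 5.98 CPM in Kir2.1 at P4. At P8 it was 2.56 to 11.3 CPM in wild type and 2.62 to 9.25 CPM in Kir2.1, which overlap.

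None of the other 48 pathway genes was called between genotypes by edgeR at P4 or P8, and 2 of them at P4 and 4 at P8 had an unadjusted p under 0.05, where 7.22% and 6.82% of all genes did. Gas1 changed by 0.40 at P4 and by -0.23 at P8, Boc by 0.36 and -0.36, Kif7 by 0.31 and 0.46, Mycn by 0.30 and 0.14, and Sufu by 0.10 and -0.04.

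**Figure D4:**
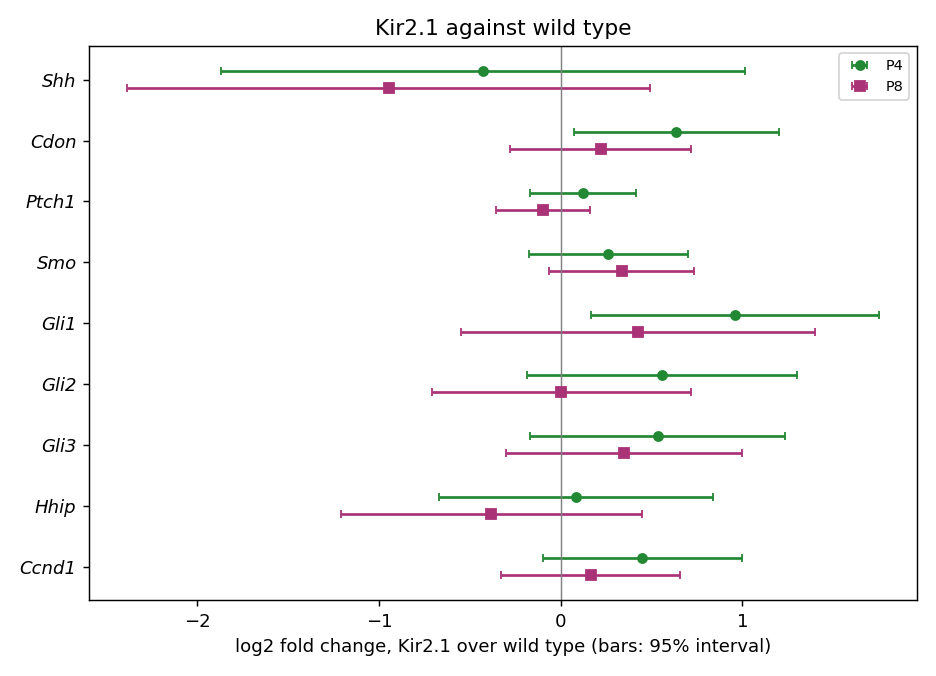
Change between genotypes as log2 of Kir2.1 over wild type (horizontal axis) for each gene at P4 (green circles, 3 against 2 libraries) and at P8 (purple squares, 3 against 3), with 95% intervals from the edgeR fit as bars. The P4 intervals of Gli1 (0.17 to 1.75) and Cdon (0.07 to 1.20) lie above 0 before adjustment over genes, and the P8 intervals of all 9 genes include 0.

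The authors' deposited table for P4 calls 2 of the 9 genes, with adjusted p-values under 0.05: Gli2, at 0.92 on the log2 scale (adjusted p = 0.0201), and Ccnd1, at 0.77 (adjusted p = 0.00167). The authors' deposited table calls 2.27% of its 13830 genes with an adjusted p at that age. In the authors' deposited table Gli1 has a change of 0.9995 and an adjusted p of 0.162 at P4, and Ptch1 has 0.31 with an adjusted p of 0.522. For P8 the authors' deposited table calls 7.27% of 13396 genes and none of the members, of which Shh, Gli1 and Hhip have no adjusted p. The scale of the counts differs from that of the authors' deposited table. For Ptch1 the authors' deposited table has a mean normalized count of 946 at each age. Raw counts of Ptch1 here ran from 1312 to 1936 at P4 and from 1087 to 1565 at P8. Whether the counts or only the scaling differ was not tested, so the following differences may not come from the fit alone. The edgeR fit of all 11 libraries gave lower P4 estimates for Gli2 (0.56) and Ccnd1 (0.45) than the authors' deposited table. For Cdon it gave a higher one (0.64, where the authors' deposited table has 0.41). At P8 the signs differed for Hhip, at -0.38 by edgeR and 0.29 in the authors' deposited table, for Gli1, at 0.43 and -0.07 in that order, and for Ptch1, at -0.10 and 0.02.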

How the data were processed

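Retinal RNA was sequenced in 11 libraries. The authors deposited whole-number counts per Ensembl gene and, for each age, a table of their own comparison. Per the file headers, each of the authors' tables gives the mean normalized count (a signal), the log2 fold change with its error, its test score, and raw and adjusted p-values. The submitters' processing notes name cutadapt 1.18, STAR 2.5.0c, HTSeq 0.6.1, SAMtools 1.9, bedtools 2.26.0, DESeq2 and mm10. The annotation and strand setting are not given in the sources used here. Records of no gene (74.6% to 79.8% per library) were left out.

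Counts were fitted in edgeR 4.0.16 (R 4.3.3) with filterByExpr, TMM scaling (factors 0.964 to 1.05) and 4 group means over all libraries (7 residual and 5.05 prior degrees of freedom). Contrasts were tested by quasi-likelihood with Benjamini-Hochberg adjustment over 18188 genes at 0.05. The SE is the fold change over the root of the F statistic, and intervals are at 95%. CPM values are TMM-scaled. Ratios were compared on the log2 scale by exact permutation in scipy 1.17.1. On data simulated for the averaged contrast of ages over 18188 genes, 90.5% of 200 genes with a log2 change of 2 were recovered, with 10 false among 191 calls.

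Members, lists and tests were chosen with earlier results of these data known. Named are all members, the up to 4 highest and 4 lowest called genes of the pathway lists per contrast, 6 genes in any case, and the 5 genes nearest to Shh, Gli1 and Ccnd1 (mean of at least 1 CPM, pseudocount 1). Alternatives were DESeq2 1.42.0, its size factors, other filters, the replicate number as a block, fewer libraries and leaving out each library. Libraries with the same number had correlated deviations of -0.12 to 0.19, so the numbers were not taken as pairs. Results for some genes of the pathway and marker lists are not reported here.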

Additional observations from a re-analysis of the deposited data

How the results depend on the processing

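Averaged over genotypes, the fall from P4 to P8 of Gli1, Ccnd1, Hhip, Gli3, Gli2 and Smo passed in all 17 alternatives, with values from -4.27 to -3.66 for Gli1 and from -1.23 to -0.85 for Smo. That of Shh passed in 7 of 17. Within Kir2.1 these 6 passed in all 13; within wild type Gli1, Ccnd1 and Hhip passed in all 12, Gli3 in 11, Smo in 10 and Gli2 in 8. Fitted on the libraries compared alone, Smo, Gli2 and Gli3 did not pass in wild type (-1.06, -1.72 and -2.22), and Shh (-1.72) and Cdon (-0.63) passed in Kir2.1. No member was called between genotypes in any alternative except Cdon at P4 without a filter (0.63, adjusted p = 0.0104, range over its alternatives 0.0104 to 0.957, edgeR).

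The numbers of all genes called moved more; the cause was not tested. Without a filter, 339 were called between genotypes at P4, 447 at P8, 136 for the difference of these effects and 2058 between ages in wild type. DESeq2 called 21 at P4, 1 at P8 and 1444 between ages in wild type. Fitting the wild-type libraries alone gave 113. Leaving out wild-type P4 library 2 and wild-type P8 library 3 together, chosen after seeing the data, gave 534 at P8 and 1711 between ages in wild type. Leaving out 1 library gave 0 to 6 at P4, 0 to 219 at P8, 0 to 1 for the difference, 163 to 1339 between ages in wild type, 1764 to 2169 in Kir2.1 and 2133 to 4417 averaged; a lone library left in a group was assumed to vary like the other groups.

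With the replicate number as a block, the counts were 0 at P4, 0 at P8, 0 for the difference, 558 between ages in wild type, 2928 in Kir2.1 and 3721 averaged. Under the block, Gli2 in wild type (-1.58, adjusted p = 0.0523) and Shh averaged (-1.56, adjusted p = 0.0598) did not pass (edgeR), nor did Ulk3 and Btrc in wild type, Stk36 in Kir2.1 and Mycn averaged, and the sign of Gli2 at P8 turned (-0.015). The libraries share only a number.

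Other signs that turned were of values that passed no test. Without a filter Gli2 was -0.0054 at P8. With 1 library left out, the ranges were -0.36 to 0.29 for Gli2 at P8, -1.33 to 0.27 for Shh at P8, -0.20 to 0.44 for Hhip at P4 and -0.10 to 0.015 for Ptch1 between ages in wild type. For the difference of effects they were -0.24 to 0.32 for Smo, -0.81 to 0.25 for Gli3, -0.86 to 0.12 for Ccnd1 and -0.91 to 0.69 for Shh. With both libraries out, Hhip at P4 was -0.21, and the differences were 0.54 for Gli3, 0.19 for Hhip and 0.27 for Ccnd1. The log2 difference between ages ranged from -0.067 to 0.36 for Shh per ganglion cell markers and from -0.12 to 0.10 for Gli1 per dividing markers. Shh, Gli1 and Hhip had 7 to 53 counts per library at P8, the fewest of the 9 genes.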
